A study of Sus scrofa with 81 samples.

Results

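Skeletal muscle of pigs at D80, read from the stage names as postnatal day 80, was compared with the same tissue at D40 and D100 for genes of the immune system. D80 is 1 of 27 stages in the series and holds 3 of its 81 libraries. D40 and D100 hold 3 libraries each, and D60, the stage just before D80, was left out of the comparison. All these animals are of the breed spelled Landrance in the labels. No genotype, treatment or diet is given for any stage, and the labels name neither the muscle nor the sex of the pigs. Whether the 3 libraries of one stage represent 3 animals is not stated either, so p-values measure only the spread between libraries, which may be technical. RNA was extracted from whole tissue. In such bulk samples a change in the number of cells of a type cannot be told apart from a change in RNA per cell.

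Resting muscle holds few lymphocytes, and most of its immune cells are resident macrophages. Interferon gamma, released by T cells and natural killer cells, raises the chemokines CXCL9, CXCL10 and CXCL11, the guanylate-binding proteins and the genes of antigen presentation. These chemokines draw in further T cells. Type I interferons raise antiviral genes such as ISG15 and MX1. The gene sets of the interferons overlap in part. Complement proteins mark and lyse targets, and plasma cells secrete immunoglobulins, which JCHAIN links into polymers.

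Expression was deposited as FPKM (fragments per kilobase of transcript, scaled to the mapped fragments of the library). The depth of the libraries is unknown. Fast-fibre contractile genes, which mark skeletal muscle, summed to 49202 to 69732 FPKM in the D80 libraries, against 46243 to 85075 FPKM in those of D40 and D100. The 3 D80 libraries were the least alike of any stage: replicates 1 and 3 had the lowest correlation of the 81 within-stage pairs (Pearson's r over log2(FPKM + 1) = 0.954; the median pair had 0.986). Replicate 1 listed 11053 genes at 1 FPKM or more, against 10025 and 9957 in D80 replicates 2 and 3 and 10175 to 10633 in the D40 and D100 libraries. It was above replicate 2 for 10369 of the 14220 genes tested. What sets replicate 1 apart was not tested, and the main counts below are therefore given with and without it. In the sentences that follow, 3 values of a stage stand in the order of replicates 1, 2 and 3.

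The 16 immune lists held 58 genes that were higher at D80 than at D40 and D100, of 228 tested, and 0 that were lower. A call needed an adjusted p of less than 0.05 in limma together with a log2 fold change, on log2(FPKM + 1), of at least 1 in either direction. Over all 14220 genes tested, 146 were called higher (1.03%) and 142 lower (0.999%). The immune list genes had a median log2 fold change of 0.61, against -0.03 over all genes tested. By library, their median difference from the mean of the D40 and D100 means was 1.43, 0.39 and 0.04 in D80 replicates 1, 2 and 3. Most of the immune signal of D80 was thus the signal of replicate 1, with a smaller part in replicate 2 and a median near 0 in replicate 3. Replicate 1 had the highest value of all 81 libraries for 135 of the 228 immune list genes, and for 532 of all 14220 genes.

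Without D80 replicate 1, 23 of the 228 immune list genes were called higher, against 87 of all genes (0.612%). Of all genes, 170 were then called lower (1.2%). Without D80 replicate 3, 100 of the 228 were called higher, against 255 of all 14220 genes tested, and 130 of all genes were called lower. In a fit of the 9 libraries alone, whose error is the spread within D80, D40 and D100, 8 of the 228 were called higher, against 27 of all genes (0.19%), and 104 of all genes were called lower (0.731%). The 81-library fit shares one spread per gene over all stages. Genes near 0 FPKM at most stages have little spread there, and their p-values do not carry the distance between the D80 libraries. In all 3 D80 libraries, 25 of the 228 genes lay above all 6 libraries of D40 and D100, against 2.57% of all genes (366). A call itself favours such a separation, so where it is named below for single called genes it is no separate support. The plot of list medians by D80 library shows how the lists divide.

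**Figure D1:**
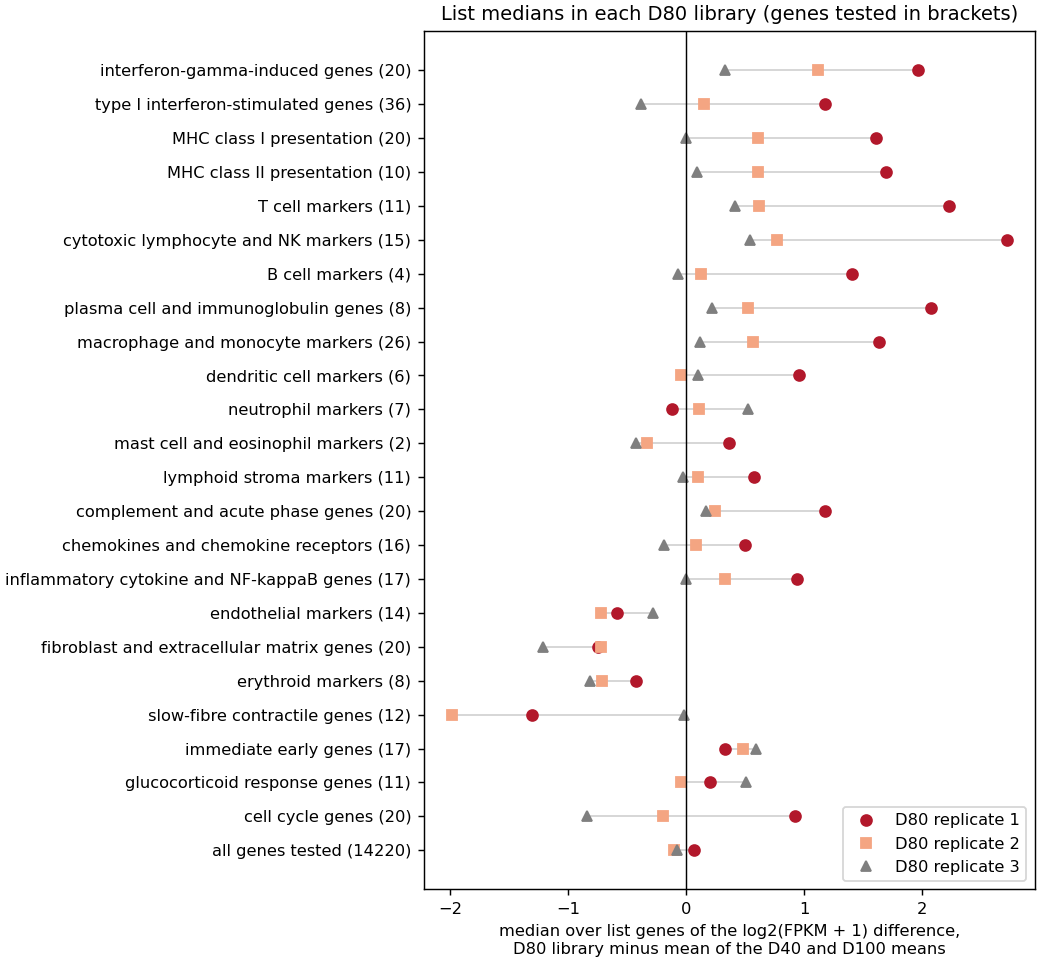
Median over the tested genes of each list of the difference, in log2(FPKM + 1), between 1 D80 library and the mean of the D40 and D100 means; each row is a list, each symbol a D80 replicate, and the grey line joins the 3 medians. Replicate 1 lies farthest to the right for 15 of the 16 immune lists, the exception being the neutrophil markers.

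Of the 20 tested genes that interferon gamma induces, 12 were higher at D80 and 0 lower. Their median log2 fold change was 1.15, and by library the median was 1.96, 1.12 and 0.33. CXCL9, a chemokine ligand of the receptor CXCR3 on activated T cells, had 191, 94.2 and 10.2 FPKM at D80, against 3.66, 2.71 and 3 FPKM at D40 and 23.5, 7.32 and 16.3 FPKM at D100 (log2 fold change 2.90 ± 0.42 (SE), adjusted p = 8.7e-07). Replicates 1 and 2 were above all D40 and D100 libraries, while replicate 3 fell within the range of D100. CXCL10, a second ligand of CXCR3, had 109, 80.3 and 16.7 FPKM at D80, against 8.89, 22.6 and 4.82 FPKM at D40 and 27.9, 5.58 and 14.2 FPKM at D100 (log2 fold change 2.11 ± 0.56 (SE), adjusted p = 0.0051). Its replicate 3 was again inside the range of the other libraries, and without replicate 1 the gene no longer passed (adjusted p = 0.082). CXCL11, the third ligand, was low throughout, with 7.86, 4.52 and 0.546 FPKM at D80, against 0.0636, 0 and 0.169 FPKM at D40 and 2.07, 0.176 and 1.16 FPKM at D100 (log2 fold change 1.53 ± 0.24 (SE), adjusted p = 4.4e-06).

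GBP1 and GBP7 encode guanylate-binding proteins, interferon-induced GTPases that act on intracellular pathogens; members of this family are similar in sequence, and reads may have been split between them. GBP1 had 170.4, 107 and 27.2 FPKM at D80, against 13.2, 27.2 and 7.66 FPKM at D40 and 35.6, 14.7 and 24.2 FPKM at D100 (log2 fold change 2.07 ± 0.36 (SE), adjusted p = 3.1e-05). GBP7 had 92.1, 53.1 and 5.85 FPKM at D80, against 3.13, 4.94 and 1.19 FPKM at D40 and 7.57, 2.08 and 4.17 FPKM at D100 (log2 fold change 2.88 ± 0.39 (SE), adjusted p = 2e-07). Both had the same order as CXCL9, with replicates 1 and 2 above the other 6 libraries and replicate 3 inside their range. IDO1, the enzyme that opens the breakdown of tryptophan, differed from them in that its groups did not overlap. It had 6.15, 5.105 and 2.16 FPKM at D80, against 0.0429, 0 and 0.0775 FPKM at D40 and 1.43, 0.144 and 0.669 FPKM at D100 (log2 fold change 1.97 ± 0.16 (SE), adjusted p = 7.5e-14). IDO1 was still called without replicate 1 (log2 fold change 1.74, adjusted p = 5.6e-10) and in the fit of 9 libraries (adjusted p = 0.024). In that fit IDO1 was the 1 gene of this list called, and CXCL9 missed the threshold (adjusted p = 0.077).

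IRF1, a transcription factor that interferon gamma induces, had a smaller fold change than the chemokines. It had 29.1, 16.97 and 11.03 FPKM at D80, against 5.04, 15.5 and 5.12 FPKM at D40 and 11.4, 6.73 and 8.27 FPKM at D100 (log2 fold change 1.048 ± 0.26 (SE), adjusted p = 0.0029). IRF1 did not pass without replicate 1 (adjusted p = 0.096). Without that library, 7 of the 20 genes of the list were called higher. IFNG itself, which encodes interferon gamma, was below the filter on low values and was not tested; it was chosen for mention after its values were seen. It had 1.91, 0.542 and 0.172 FPKM at D80, against 0.0527, 0.0616 and 0 FPKM at D40 and 0.9497, 0.318 and 0.352 FPKM at D100.

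Genes better known as targets of type I interferon gave fewer calls, with library medians in the same order as those of the interferon-gamma-induced genes. Of 36 tested, 0 were called in either direction in limma, with 7 at an unadjusted p below 0.05. The median log2 fold change was 0.30, and by library the median was 1.18, 0.15 and -0.38. Replicate 1 was the highest D80 library for 36 of 36, against 8390 of all 14220 genes tested. ISG15, a ubiquitin-like antiviral protein, had 116, 69.4 and 35.9 FPKM at D80, against 72.3, 306 and 35.5 FPKM at D40 and 60.9, 20.2 and 37.3 FPKM at D100 (adjusted p = 0.91). The highest of these 9 values was D40 replicate 2. MX1, a GTPase that restricts RNA viruses, had 42.5, 15.7 and 8.64 FPKM at D80, against 13.9, 54.5 and 7.83 FPKM at D40 and 16.6, 6.04 and 9.92 FPKM at D100 (adjusted p = 0.73). IFIT1, which binds viral RNA, had 59.6, 28.02 and 22.9 FPKM at D80, against 30.2, 90.2 and 14.8 FPKM at D40 and 37.2, 13.8 and 23.3 FPKM at D100 (adjusted p = 0.78). D40 replicate 2 was the highest of the 9 libraries for both. With that library left out, 3 of the 36 genes were called higher (1.08% of all genes). Without D80 replicate 3, 4 of the 36 were called higher, against 255 of all genes. The summed level of the list was 1469.7, 719 and 387 FPKM at D80, against 869.9, 1551 and 517 FPKM at D40 and 976, 395 and 513 FPKM at D100.

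**Figure D2:**
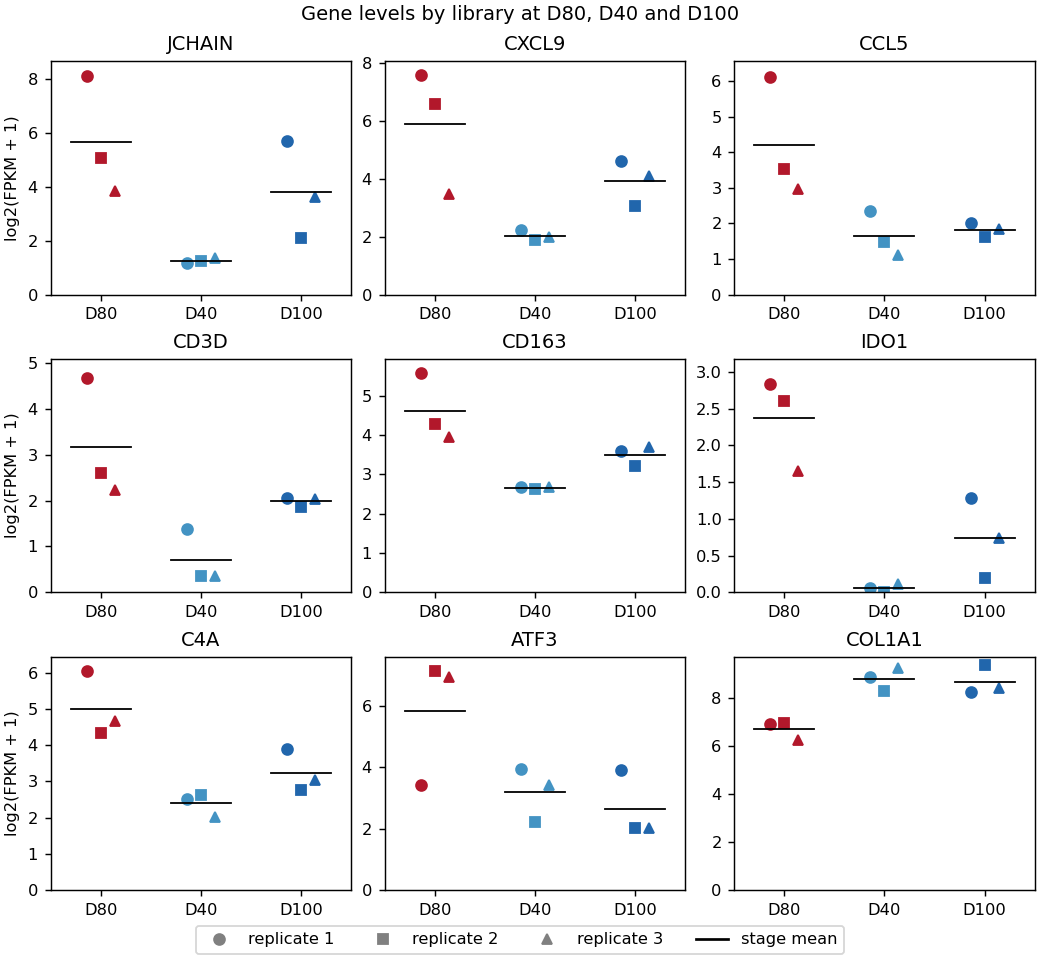
Level of 9 genes in log2(FPKM + 1) for the 3 libraries each of D80, D40 and D100; symbols are replicates and the black line is the stage mean. JCHAIN, CCL5 and CD3D are highest in D80 replicate 1, CXCL9 and IDO1 in replicates 1 and 2, ATF3 in replicates 2 and 3, and COL1A1 is lower in all 3 D80 libraries than in the other 6.

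Genes of antigen presentation were highest in replicate 1. Among 20 tested genes of MHC class I presentation 4 were called higher, and among 10 of class II presentation 2 were. The median log2 fold changes were 0.72 and 0.83. By library, the class I median was 1.61, 0.61 and -0.003 and the class II median 1.69, 0.61 and 0.10, so that the medians of replicate 3 were near 0. PSMB8 and PSMB9 encode subunits of the immunoproteasome, which cuts proteins into peptides for class I. PSMB8 had 80.5, 36.5 and 18.3 FPKM at D80, against 14.2, 17.7 and 10.6 FPKM at D40 and 22.4, 13.8 and 20.9 FPKM at D100 (log2 fold change 1.19 ± 0.29 (SE), adjusted p = 0.0026). PSMB9 had 56.3, 29.9 and 8.403 FPKM at D80, against 8.76, 10.4 and 6.44 FPKM at D40 and 14.9, 7.27 and 12.6 FPKM at D100 (log2 fold change 1.26 ± 0.30 (SE), adjusted p = 0.0017). The class I genes SLA-3 and SLA-6 belong to a family of near-identical copies, so their own levels are uncertain. SLA-3 had 165, 52.4 and 49.3 FPKM at D80, against 39.8, 31.04 and 37.5 FPKM at D40 and 15.4, 12.3 and 35.9 FPKM at D100 (log2 fold change 1.49 ± 0.42 (SE), adjusted p = 0.008), with all D80 values above the other 6. Without replicate 3, 13 class I genes and 8 class II genes were called higher, against 255 of all genes.

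The called class II genes were SLA-DQB1, the beta chain of an MHC class II molecule, and IFI30, a thiol reductase of the antigen-processing lysosome. SLA-DQB1 had 160.2, 71.8 and 56.2 FPKM at D80, against 35.3, 26.2 and 29.6 FPKM at D40 and 64.5, 43.4 and 72.3 FPKM at D100 (log2 fold change 1.02 ± 0.28 (SE), adjusted p = 0.0074). IFI30 had 83.4, 29.7 and 15.3 FPKM at D80, against 10.7, 11.5 and 11.2 FPKM at D40 and 24.9, 13.8 and 30.9 FPKM at D100 (log2 fold change 1.06 ± 0.33 (SE), adjusted p = 0.016). SLA-DRA, the alpha chain of another class II molecule, had 210.3, 104 and 76.1 FPKM at D80, against 51.4, 35.7 and 36.9 FPKM at D40 and 118, 72.2 and 109 FPKM at D100, with a log2 fold change of 0.90 that missed the minimum of 1 (adjusted p = 0.018). CD74, the chaperone of class II molecules, had 217, 91.9 and 54.7 FPKM at D80, against 67.6, 63.04 and 63.2 FPKM at D40 and 74.6, 77.3 and 71.1 FPKM at D100 (adjusted p = 0.11). B2M, the shared light chain of class I molecules, is listed under 2 gene IDs, with log2 fold changes of 0.96 and 0.92. Both were short of the minimum fold change, and the larger of the pair in FPKM had 1335, 699 and 447 FPKM at D80, against 399, 424 and 349 FPKM at D40 and 513, 291 and 433 FPKM at D100. Without replicate 1 limma called 0 genes of either presentation list, with 5 class I genes and 1 class II gene at an unadjusted p below 0.05.

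T cell markers were higher at D80 for 7 of the 11 genes tested. Their median log2 fold change was 1.13, and replicate 1 had the highest value of all 81 libraries for 11 of 11. The summed level of all 26 genes of the list was 152, 33.6 and 23.04 FPKM at D80, against 10.05, 4.101 and 3.54 FPKM at D40 and 23.4, 17.1 and 22.7 FPKM at D100. Replicate 1 stood apart, and replicate 3 was at the level of D100. The CD3 chains carry the signal of the T cell receptor. CD3D had 24.5, 5.095 and 3.67 FPKM at D80, against 1.61, 0.281 and 0.2796 FPKM at D40 and 3.16, 2.65 and 3.09 FPKM at D100 (log2 fold change 1.83 ± 0.25 (SE), adjusted p = 2.9e-07). CD3E had 10.7, 2.53 and 1.06 FPKM at D80, against 1.04, 0.0354 and 0.0326 FPKM at D40 and 1.18, 1.199 and 1.095 FPKM at D100 (log2 fold change 1.39 ± 0.22 (SE), adjusted p = 3.2e-06). All 3 D80 values of CD3D were above the other 6, but replicates 2 and 3 were closer to D100 than to replicate 1. CD2, an adhesion receptor of T and natural killer cells, had 35.3, 8.902 and 4.37 FPKM at D80, against 1.401, 1.23 and 0.513 FPKM at D40 and 4.71, 2.597 and 4.08 FPKM at D100 (log2 fold change 2.02 ± 0.29 (SE), adjusted p = 1.1e-06). LCK, the kinase that starts T cell receptor signalling, had 14.2, 2.08 and 2.15 FPKM at D80, against 0.859, 0.279 and 0.183 FPKM at D40 and 1.73, 1.203 and 2.12 FPKM at D100 (log2 fold change 1.45 ± 0.20 (SE), adjusted p = 5.2e-07). Without replicate 1 CD2 and CD3D were still called, and in the fit of 9 libraries limma called 0 of the 11, with 9 at an unadjusted p below 0.05. CD8A, the co-receptor of cytotoxic T cells, was below the filter and had 3.07, 0.539 and 0.366 FPKM at D80, against 0.168, 0.0574 and 0.0347 FPKM at D40 and 0.287, 0.222 and 0.333 FPKM at D100.

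Of 15 tested genes of cytotoxic lymphocytes and natural killer cells, 11 were higher. Their median log2 fold change was 1.303, with library medians of 2.72, 0.77 and 0.54, and replicate 1 was the highest of 81 libraries for 15 of 15. GNLY, a pore-forming antimicrobial protein, had 92.7, 34.98 and 12.7 FPKM at D80, against 9.45, 3.62 and 2.804 FPKM at D40 and 8.28, 6.91 and 7.301 FPKM at D100 (log2 fold change 2.37 ± 0.35 (SE), adjusted p = 1.5e-06). GZMA, a granule protease, is listed under 2 gene IDs, which may share reads. The more abundant had 33.8, 9.78 and 2.91 FPKM at D80, against 2.37, 0.2998 and 0.444 FPKM at D40 and 4.898, 1.201 and 2.44 FPKM at D100 (log2 fold change 2.15 ± 0.29 (SE), adjusted p = 2e-07), and the other, with 5.03, 1.39 and 0.0844 FPKM at D80, was not called (log2 fold change 0.81). CCL5, a chemokine that these cells store and release, had 68.3, 10.5 and 6.75 FPKM at D80, against 4.05, 1.78 and 1.18 FPKM at D40 and 3.04, 2.04 and 2.595 FPKM at D100 (log2 fold change 2.46 ± 0.36 (SE), adjusted p = 8.8e-07). KLRK1, the activating receptor also known as NKG2D, had 27.5, 3.81 and 4.91 FPKM at D80, against 1.77, 0.346 and 0.4302 FPKM at D40 and 3.29, 3.85 and 2.92 FPKM at D100 (log2 fold change 1.76 ± 0.23 (SE), adjusted p = 1.4e-07). NKG7, a granule membrane protein, had 11.5, 2.22 and 1.15 FPKM at D80, against 0.841, 0.447 and 0.337 FPKM at D40 and 1.72, 1.07 and 1.39 FPKM at D100 (log2 fold change 1.22 ± 0.24 (SE), adjusted p = 0.00017). For GNLY and CCL5 the groups did not overlap. GNLY, GZMA and CCL5 were the 3 genes of the list still called without replicate 1. In the fit of 9 libraries limma called 0 of the 15, with 13 at an unadjusted p below 0.05 (adjusted p = 0.051 for GNLY and 0.064 for CCL5).

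Plasma cell and immunoglobulin genes held the largest increase of all 146 genes called higher, that of an IgG heavy chain. Of 8 tested, 4 were higher: the IgG gene, listed as LOC396781, JCHAIN, MZB1 and CD38. LOC396781 had 228, 17.5 and 10.2 FPKM at D80, against 0.326, 0.0767 and 0.239 FPKM at D40 and 47.7, 2.25 and 7.87 FPKM at D100 (log2 fold change 3.30 ± 0.46 (SE), adjusted p = 5.1e-07). JCHAIN had 276, 32.6 and 13.2 FPKM at D80, against 1.27, 1.37 and 1.54 FPKM at D40 and 50.7, 3.31 and 11.2 FPKM at D100 (log2 fold change 3.14 ± 0.43 (SE), adjusted p = 3.1e-07). For both, D80 replicate 1 was the highest of the 9 libraries, D100 replicate 1 was second, and D80 replicate 3 was close to D100 replicate 3. MZB1, a chaperone of antibody-secreting cells, had 29.8, 4.03 and 1.602 FPKM at D80, against 0.536, 0.217 and 0.7705 FPKM at D40 and 4.74, 0.9501 and 1.78 FPKM at D100 (log2 fold change 1.77 ± 0.32 (SE), adjusted p = 5.1e-05). CD38, a surface enzyme of plasma cells and activated lymphocytes, had 14.8, 2.65 and 2.01 FPKM at D80, against 0.845, 0.459 and 0.302 FPKM at D40 and 1.99, 1.33 and 1.37 FPKM at D100 (log2 fold change 1.502 ± 0.22 (SE), adjusted p = 1.1e-06). LOC396781 and JCHAIN were still called without replicate 1 (log2 fold changes 1.97 and 1.92). In the fit of 9 libraries limma called 0 of the 8, with 4 at an unadjusted p below 0.05 (adjusted p = 0.11 for LOC396781 and 0.1 for JCHAIN). Immunoglobulin genes share sequence, so the split of reads among them is uncertain.

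Of 4 tested markers of B cells before the plasma cell stage, 0 were called in limma, with 3 at an unadjusted p below 0.05. Their library medians were 1.41, 0.13 and -0.07, replicate 1 was the highest of 81 libraries for 3 of 4, and 1 was called without replicate 2 and 1 without replicate 3. Summed over the list, the level was 29.01, 7.198 and 5.41 FPKM at D80, against 4.81, 4.39 and 4.29 FPKM at D40 and 9.88, 6.16 and 7.396 FPKM at D100, so that replicate 1 stood above the other 8 libraries while replicates 2 and 3 lay within the range of D40 and D100. The other genes of the list, which names 18, were below the filter or not found. MS4A1, the B cell surface protein CD20, had 0.401, 0.0273 and 0.0393 FPKM at D80, against 0.0154, 0.0301 and 0.0831 FPKM at D40 and 0.0394, 0.183 and 0 FPKM at D100. CD79B, a signalling chain of the B cell receptor, had 1.296, 0.437 and 0.139 FPKM at D80, against 0.157, 0.02696 and 0.1796 FPKM at D40 and 0.375, 0.202 and 0.1298 FPKM at D100. No library of the 9 had more of either gene than 1.296 FPKM, the level of CD79B in D80 replicate 1, and for both the highest of 81 libraries was D80 replicate 1.

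Markers of lymph node stroma were measured because lymph node tissue holds the same lymphocytes. CCL19 and CCL21 are chemokines that guide lymphocytes in lymph nodes, and CXCL13 guides B cells into follicles. CCL19 had 32.3, 13.9 and 10.8 FPKM at D80, against 8.34, 5.73 and 10.4 FPKM at D40 and 17.7, 3.83 and 9.94 FPKM at D100, with a log2 fold change of 0.93 below the minimum (adjusted p = 0.04). CCL21 had 13.05, 9.08 and 4.32 FPKM at D80, against 10.9, 18.1 and 8.59 FPKM at D40 and 7.7, 20.2 and 10.4 FPKM at D100 (log2 fold change -0.50, adjusted p = 0.27). CXCL13 had 62.8, 14.3 and 1.77 FPKM at D80, against 1.78, 0.367 and 0.567 FPKM at D40 and 10.2, 1.18 and 2.403 FPKM at D100 (log2 fold change 2.31 ± 0.55 (SE), adjusted p = 0.0018) and was the 1 gene of 11 tested in this list that was called. It was not called without replicate 1 (adjusted p = 0.15). The summed level of the list was 165, 75.7 and 49.3 FPKM at D80, against 45.4, 58 and 50.8 FPKM at D40 and 74.8, 67.97 and 67.4 FPKM at D100. The part of lymphoid tissue in these results was not tested beyond these values.

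Macrophage and monocyte markers were higher for 7 of 26 genes tested, with a median log2 fold change of 0.77 and library medians of 1.64, 0.57 and 0.12. Without replicate 1, 1 was called higher (87 of all genes), and without replicate 3, 15 were (255 of all genes). The summed level of the list was 889, 402 and 261 FPKM at D80, against 203, 184 and 169 FPKM at D40 and 412, 262 and 378 FPKM at D100, so that replicate 2 was within the range of D100 and replicate 3 at its lower end. CD163, the scavenger receptor for haemoglobin bound to haptoglobin, had 46.9, 18.3 and 14.4 FPKM at D80, against 5.43, 5.17 and 5.34 FPKM at D40 and 11.02, 8.19 and 12 FPKM at D100 (log2 fold change 1.52 ± 0.30 (SE), adjusted p = 0.00017). Its 3 D80 values were above the other 6, and it was called without replicate 1 (log2 fold change 1.03, adjusted p = 0.023) and in the fit of 9 libraries (adjusted p = 0.043). LYZ, the bacteriolytic enzyme lysozyme, had 47.5, 9.86 and 8.04 FPKM at D80, against 1.58, 2.16 and 1.51 FPKM at D40 and 11.7, 1.195 and 16.6 FPKM at D100 (log2 fold change 1.86 ± 0.39 (SE), adjusted p = 0.00042). CCR2, the chemokine receptor of blood monocytes, had 12.9, 3.52 and 2.89 FPKM at D80, against 0.748, 0.743 and 0.619 FPKM at D40 and 2.81, 2.66 and 4.33 FPKM at D100 (log2 fold change 1.22 ± 0.24 (SE), adjusted p = 0.00017). GP91-PHOX, the membrane subunit of the phagocyte oxidase, had 26.9, 7.17 and 4.49 FPKM at D80, against 2.31, 2.04 and 1.71 FPKM at D40 and 5.15, 4.299 and 8.26 FPKM at D100 (log2 fold change 1.26 ± 0.31 (SE), adjusted p = 0.0026). None of LYZ, CCR2 and GP91-PHOX passed without replicate 1 (adjusted p = 0.06, 0.051 and 0.22). C1QA, a chain of complement C1q made by macrophages, had 123, 72.3 and 43.03 FPKM at D80, against 38.2, 29.9 and 26.7 FPKM at D40 and 75.02, 42.1 and 57.2 FPKM at D100 (log2 fold change 0.78). CD68, a lysosomal protein of macrophages, had 7.42, 1.88 and 1.47 FPKM at D80, against 1.604, 0.977 and 0.994 FPKM at D40 and 2.47, 1.198 and 2.79 FPKM at D100 (adjusted p = 0.057).

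Of 20 tested complement and acute phase genes, 6 were called higher, and the same 6 were called without replicate 1. The list median was lower without it, at 0.25, against 0.55 with all libraries. The fit of 9 libraries called 3, and with replicate 1 left out of that fit limma called 0, with 8 at an unadjusted p below 0.05. Without replicate 3 the 81-library fit called 9 higher, against 255 of all genes. C4A and C2 encode the components that form the C3 convertase of the classical pathway, and C3 is its substrate. C4A had 64.8, 19.03 and 24.2 FPKM at D80, against 4.75, 5.21 and 3.08 FPKM at D40 and 13.97, 5.75 and 7.24 FPKM at D100 (log2 fold change 2.19 ± 0.45 (SE), adjusted p = 0.00029). C2 had 36.7, 11.9 and 9.31 FPKM at D80, against 2.43, 2.38 and 2.39 FPKM at D40 and 7.25, 2.73 and 4.01 FPKM at D100 (log2 fold change 2.002 ± 0.32 (SE), adjusted p = 5.3e-06). C3 had 132, 27.5 and 27.6 FPKM at D80, against 10.01, 6.21 and 6.83 FPKM at D40 and 10.8, 18.1 and 18.2 FPKM at D100 (log2 fold change 2.02 ± 0.40 (SE), adjusted p = 0.00019). For all 3 genes, every D80 library was above every D40 and D100 library, with replicate 1 the highest. This held for 4 of the 20 genes of the list, against 2.57% of all genes tested, and a call itself favours it. Without replicate 1 the log2 fold changes were 1.68 for C4A (adjusted p = 0.018), 1.43 for C2 (adjusted p = 0.0026) and 1.27 for C3 (adjusted p = 0.033). In the fit of 9 libraries C4A and C2 were called (adjusted p = 0.031 and 0.039), and C3 was just short (adjusted p = 0.055). SAA3, an acute phase protein also made outside the liver, had 6.88, 12.6 and 0.216 FPKM at D80, against 0, 0 and 0.0581 FPKM at D40 and 1.35, 0 and 3.196 FPKM at D100 (log2 fold change 1.78 ± 0.44 (SE), adjusted p = 0.0024), with replicate 3 near 0. C1S, a protease of the complement C1 complex, was among the called genes and was chosen for mention after its values were seen. It had 193, 144 and 145 FPKM at D80, against 46.1, 44.1 and 55.6 FPKM at D40 and 159, 60.9 and 88.3 FPKM at D100 (log2 fold change 1.22 ± 0.28 (SE), adjusted p = 0.00097), which makes it the most abundant of them.

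**Figure D3:**
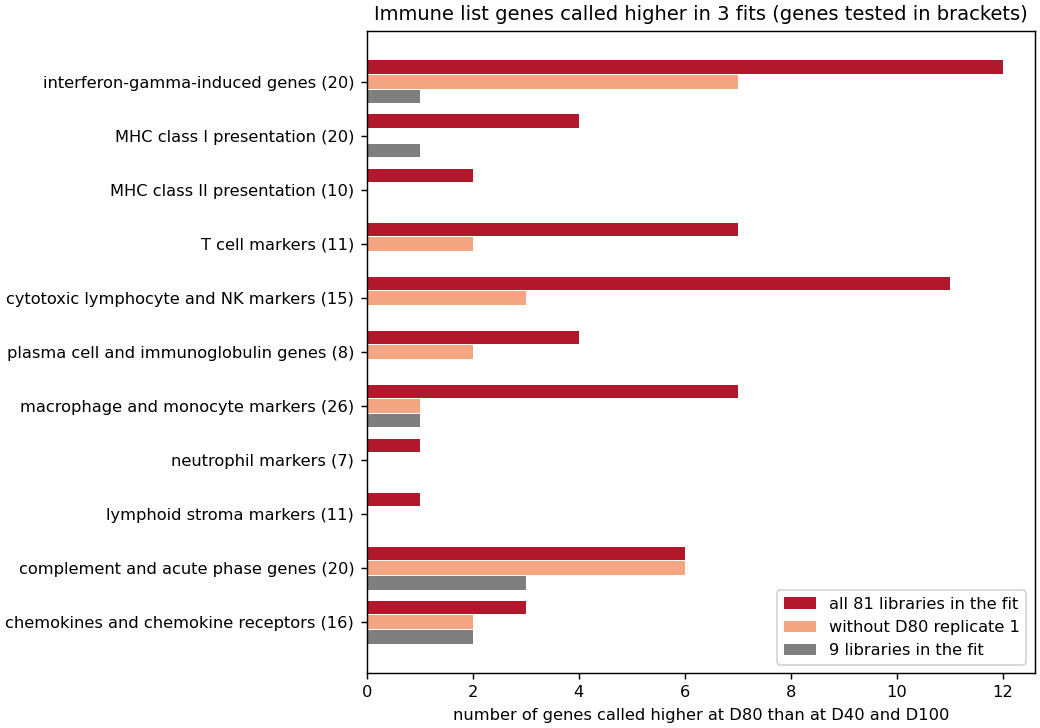
Number of genes called higher at D80 than at D40 and D100 in the immune lists that had a call; the bars of a list are the fit of all 81 libraries, the same fit without D80 replicate 1, and the fit of the 9 libraries of D80, D40 and D100. Without replicate 1 the complement list has the same 6 called genes, the T cell, cytotoxic and plasma cell lists have 2, 3 and 2, and the presentation lists 0. In the fit of 9 libraries the complement list has 3, the T cell, cytotoxic and plasma cell lists 0, MHC class I 1 and MHC class II 0.

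Chemokines and receptors outside the lists above gave 3 calls of 16 tested, with a median log2 fold change of 0.12. CXCR6, a receptor of tissue-resident T cells, was low at D40 and D100. It had 3.84, 1.49 and 1.48 FPKM at D80, against 0.136, 0.0223 and 0 FPKM at D40 and 0.495, 0.0809 and 0.229 FPKM at D100 (log2 fold change 1.43 ± 0.10 (SE), adjusted p = 3.3e-17). The D80 values of CXCR6 meet the filter of 1 FPKM in 3 libraries by themselves, while its D40 and D100 values stayed below 1 FPKM. The filter thus favours its call, and its p-value is no separate support. CCL26, an attractant of eosinophils in humans, had 15.1, 12.5 and 25.1 FPKM at D80, against 5.67, 8.74 and 6.19 FPKM at D40 and 4.08, 1.51 and 1.33 FPKM at D100 (log2 fold change 1.86 ± 0.39 (SE), adjusted p = 0.00039), and its highest D80 library was replicate 3. The groups of both genes did not overlap, and both were called without replicate 1 and in the fit of 9 libraries (adjusted p = 0.024 and 0.024). Without replicate 3, 5 genes of the chemokine list were called higher, against 255 of all genes. Of 17 inflammatory cytokine and NF-kappaB target genes, limma called 0, with 11 at an unadjusted p below 0.05, and 3 were called higher without replicate 3. Of 7 neutrophil markers 1 was called, and 2 under median-ratio scaling or quantile normalisation. The neutrophil protein S100A8 had 0, 0.565 and 1.43 FPKM at D80, against 0.169, 0.569 and 0.203 FPKM at D40 and 1.59, 0 and 0.983 FPKM at D100 (adjusted p = 0.93). Dendritic cell markers (6 tested) and mast cell and eosinophil markers (2 tested) gave 0 calls, with 3 and 1 at an unadjusted p below 0.05.

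Across all 146 genes called higher, replicate 1 was the highest D80 library for 111, of which 55 were in an immune list. Replicate 2 was highest for 9, with 1 in an immune list, and replicate 3 for 26, with 2 in an immune list. When replicate 1 was left out, 61 of the 146 were still called, against 136 without replicate 2 and 122 without replicate 3. With the fit of 9 libraries added, 24 genes were called higher in all 3 fits. Of these 24, 7 were in an immune list: C4A, C2, C1S, IDO1, CXCR6, CCL26 and CD163. In 22 of the 24 all D80 values lay above the other 6, which being called in 3 fits itself favours (366 of all genes tested, 2.57%).

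**Figure D4:**
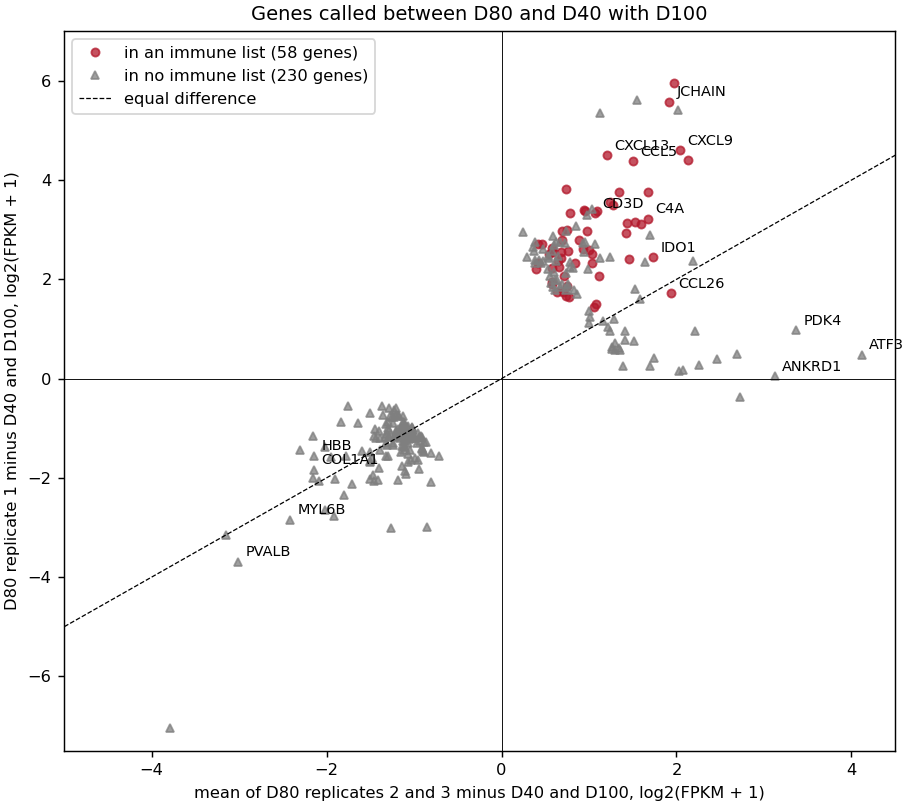
Each point is 1 of the 288 genes called between D80 and D40 with D100; the vertical axis is the difference of D80 replicate 1 and the horizontal axis that of the mean of D80 replicates 2 and 3, both in log2(FPKM + 1) from the mean of the D40 and D100 means. Immune list genes (circles) lie above the line of equal difference, except CCL26. ATF3 and PDK4 lie far to the right of the line, and most genes called lower lie near it.

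ATF3, ANKRD1 and PDK4 were higher in D80 replicates 2 and 3 than in replicate 1. ATF3, a stress-induced transcription factor, had 9.57, 139.6 and 122 FPKM at D80, against 14.4, 3.63 and 9.63 FPKM at D40 and 13.9, 3.04 and 3.06 FPKM at D100 (log2 fold change 2.91 ± 0.68 (SE), adjusted p = 0.0016). ANKRD1, a stretch-responsive protein of the sarcomere, had 20.7, 220.0 and 151 FPKM at D80, against 2.74, 40.6 and 18.6 FPKM at D40 and 9.49, 44.1 and 59.03 FPKM at D100 (log2 fold change 2.10 ± 0.66 (SE), adjusted p = 0.018). PDK4, which turns off glucose oxidation in fasting, had 13.3, 56.04 and 97.4 FPKM at D80, against 13.2, 22.6 and 2.68 FPKM at D40 and 5.62, 2.37 and 4.24 FPKM at D100 (log2 fold change 2.57 ± 0.72 (SE), adjusted p = 0.0079). For these 3 genes replicate 1 was inside the range of D40 and D100. Of 17 immediate early genes 3 were called higher, ATF3, BTG2 and NR4A3. BTG2 is an antiproliferative protein (log2 fold change 1.79). NR4A3 is a nuclear receptor (log2 fold change 1.40). BTG2 had 94.3, 209 and 249.6 FPKM at D80, against 104.8, 33.9 and 41.04 FPKM at D40 and 120.03, 23.02 and 30.9 FPKM at D100. The immediate early list as a whole did not divide in this way: replicate 1 was the highest D80 library for 6 of the 17, replicate 2 for 4 and replicate 3 for 7, with library medians of 0.33, 0.48 and 0.59. Without replicate 3 the list had 1 call, and in the fit of 9 libraries limma called 0, with 6 at an unadjusted p below 0.05. Of 11 glucocorticoid response genes 4 were called higher: PDK4, GLUL, FKBP5 and the transcription factor CEBPD (log2 fold change 1.053). Without replicate 3, 1 of these 11 was called. FKBP5, a co-chaperone of the glucocorticoid receptor, had 14.2, 9.99 and 22.7 FPKM at D80, against 6.65, 7.19 and 6.35 FPKM at D40 and 3.72, 4.35 and 6.28 FPKM at D100 (log2 fold change 1.26 ± 0.32 (SE), adjusted p = 0.003). GLUL, glutamine synthetase, had 116, 185 and 210.0 FPKM at D80, against 55.4, 95.5 and 58.2 FPKM at D40 and 76.4, 60.01 and 71.3 FPKM at D100 (log2 fold change 1.26 ± 0.27 (SE), adjusted p = 0.00043). The D80 values of FKBP5 and GLUL were above all 6 others, and both were called without replicate 1 and in the fit of 9 libraries. CTSL, a lysosomal protease of muscle protein breakdown and of macrophages, had 7.68, 8.48 and 4.36 FPKM at D80, against 0.5299, 0.855 and 0.633 FPKM at D40 and 4.18, 1.25 and 3.204 FPKM at D100 (log2 fold change 1.62 ± 0.23 (SE), adjusted p = 8.7e-07) and was likewise called in all 3 fits.

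Of the 142 genes called lower at D80, 112 were still called without replicate 1, 122 without replicate 2 and 99 without replicate 3. Replicate 3 was the lowest D80 library for 71 of them, replicate 1 for 51 and replicate 2 for 20. Of the 142, 0 were in an immune list. All 3 D80 libraries lay below the other 6 for 115 of the 142, which the call itself favours (1060 of all genes tested, 7.45%). Collagens and other matrix genes were among them, with 10 of 20 tested called lower and a median log2 fold change of -0.92. The summed level of the matrix list was 1849, 2249.7 and 1585 FPKM at D80, against 3530.1, 3554 and 5005 FPKM at D40 and 5009, 5687 and 4882 FPKM at D100. COL1A1, a chain of type I collagen, had 120.5, 124 and 75.6 FPKM at D80, against 470.4, 315 and 612 FPKM at D40 and 310.2, 669 and 348 FPKM at D100 (log2 fold change -2.04 ± 0.42 (SE), adjusted p = 0.00036). COL3A1, of type III collagen, had 474, 772 and 501 FPKM at D80, against 1237, 1395 and 1742 FPKM at D40 and 1897, 1988 and 1769 FPKM at D100 (log2 fold change -1.53 ± 0.22 (SE), adjusted p = 6.7e-07). COL5A1, of type V collagen, had 15.1, 13.99 and 11.6 FPKM at D80, against 45.04, 38.4 and 58.2 FPKM at D40 and 35.7, 69.98 and 39.02 FPKM at D100 (log2 fold change -1.71 ± 0.29 (SE), adjusted p = 1.8e-05). The groups did not overlap for any of the 3. In the fit of 9 libraries 9 matrix genes were called lower, and 3 with D80 replicate 1 left out of that fit. Without D80 replicate 3 the 81-library fit called 6. Against D40 alone 5 were called lower (165 of all 14220 genes tested), and against D100 alone 14 (226 of all genes).

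Markers of red cells and vessels were measured beside the immune genes. Of 8 erythroid markers, 3 were called lower and 0 higher, and the summed level was 160.4, 109 and 103 FPKM at D80, against 297, 1203 and 853 FPKM at D40 and 363, 293 and 351 FPKM at D100. HBB, the beta chain of haemoglobin, had 156, 106 and 99.9 FPKM at D80, against 288, 1151 and 814 FPKM at D40 and 353, 282 and 342 FPKM at D100 (log2 fold change -1.95 ± 0.41 (SE), adjusted p = 0.0004); the haemoglobin genes have near-identical copies that may share reads. Of 14 endothelial markers 2 were called lower. CLDN5, the tight junction protein of vessels, had 18.99, 13.04 and 6.55 FPKM at D80, against 35.8, 34.9 and 30.9 FPKM at D40 and 39.4, 46.1 and 29.6 FPKM at D100 (log2 fold change -1.52 ± 0.24 (SE), adjusted p = 6e-06). APLNR, the apelin receptor, had 1.34, 0.985 and 0.666 FPKM at D80, against 6.59, 2.45 and 6.43 FPKM at D40 and 4.85, 14.9 and 5.58 FPKM at D100 (log2 fold change -1.83 ± 0.30 (SE), adjusted p = 9.2e-06). For HBB, CLDN5 and APLNR all 3 D80 values were below the other 6. Beyond these values, the part of blood in the immune results was not tested.

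Muscle fibre genes differed among the D80 libraries. The summed level of 12 slow-fibre contractile genes was 2719, 1917 and 8056 FPKM at D80, against 7221, 11405 and 11361 FPKM at D40 and 6371, 3751 and 7851 FPKM at D100. Replicates 1 and 2 were below all other libraries, while replicate 3 was within their range. TNNT1, the slow skeletal troponin T, was the 1 gene of the 12 called lower, with 96.9, 52.7 and 253 FPKM at D80, against 261, 451 and 535 FPKM at D40 and 208, 147 and 293 FPKM at D100 (log2 fold change -1.39 ± 0.49 (SE), adjusted p = 0.037). This count rests on single libraries. Without D80 replicate 3, 11 of the 12 were called lower, against 130 of all genes, and without replicate 1 or 2 limma called 0. With all libraries 11 had an unadjusted p below 0.05 and the list median was -1.08. Against D40 alone 8 were called lower (165 of all genes), and against D100 alone 0 (226 of all genes), with 1 at an unadjusted p below 0.05. PVALB, a calcium buffer of fast fibres in mice, had 1.56, 11.3 and 0.368 FPKM at D80, against 9.86, 12.5 and 16.3 FPKM at D40 and 154, 37.1 and 85.5 FPKM at D100 (log2 fold change -3.24 ± 0.51 (SE), adjusted p = 5.2e-06). It was the 1 gene called lower among 16 tested fast-fibre contractile genes, and the median log2 fold change of that list was -0.14. MYL6B, an alkali myosin light chain, had 12.6, 15.5 and 19.2 FPKM at D80, against 100.2, 258 and 252 FPKM at D40 and 28.2, 35.2 and 121 FPKM at D100 (log2 fold change -2.56 ± 0.58 (SE), adjusted p = 0.00094). The 20 cell cycle genes gave 0 calls in limma, with 1 at an unadjusted p below 0.05, and their summed level was 136, 51.7 and 29.9 FPKM at D80, against 53.2, 61.2 and 85.2 FPKM at D40 and 58.7, 55.4 and 72.7 FPKM at D100. Replicate 1 was the highest D80 library for 20 of 20 of them, against 8390 of all 14220 genes tested. The library medians of the list were 0.92, -0.20 and -0.84. Without replicate 1, 16 of the 20 had an unadjusted p below 0.05, 1 was called lower, and the list median was -0.49. The part of fibre type and of dividing cells in the immune results was not tested.

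Against D40 alone, 89 of the 228 immune list genes were called higher (1.93% of all genes), and against D100 alone 33 were (0.612% of all genes). Both comparisons use the same D80 libraries. The median log2 fold change of the 228 genes was 0.75 against D40 and 0.46 against D100. JCHAIN had a log2 fold change of 4.41 against D40 and 1.87 against D100, and CD163 had 1.94 and 1.10. SLA-DRA had 1.52 against D40 (adjusted p = 0.00044) and 0.28 against D100 (adjusted p = 0.64). IDO1 and CXCR6 were called in both (log2 fold changes 2.31 and 1.63 for IDO1, 1.56 and 1.303 for CXCR6, against D40 and D100 in that order). CCL26 had the smaller difference to D40, with 1.20 against D40 and 2.53 against D100.

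Among the 12 postnatal stages, described here without a test, D80 had the highest mean for 145 of the 228 immune list genes tested, against 956 of all 14220 genes. With D80 taken as the mean of replicates 2 and 3 alone, it was the highest for 66 of the 228, against 363 of all genes. CXCL9 averaged 98.5 ± 90.5 FPKM at D80 and 15.7 ± 8.08 FPKM at D100 (SD, n = 3 each), its next highest stage. CD163 averaged 26.5 ± 17.8 FPKM at D80 (SD, n = 3), and its next highest stage was D9 with 16.7 FPKM. ISG15 was ordered otherwise: D80 ranked 4 of 12, and D9 was the highest with 513 FPKM. At D60, which was left out of the comparison, CXCL9 had 3.29, 4.18 and 1.27 FPKM, JCHAIN 1.57, 1.75 and 2.38 FPKM and IDO1 0.153, 0.0681 and 0.1298 FPKM, all below the lowest D80 library. COL1A1 had its lowest postnatal mean at D80 (107 ± 27.1 FPKM, SD, n = 3). ATF3, ANKRD1 and PDK4 did not have their highest postnatal mean at D80. ATF3 averaged 90.4 ± 70.6 FPKM at D80 and 118 ± 114 FPKM at D120 (SD, n = 3 each). ANKRD1 averaged 130 ± 101 FPKM at D80 and 327 ± 403 FPKM at D160, and PDK4 55.6 ± 42.1 FPKM at D80 and 960 ± 563 FPKM at D0 (SD, n = 3 each).

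**Figure D5:**
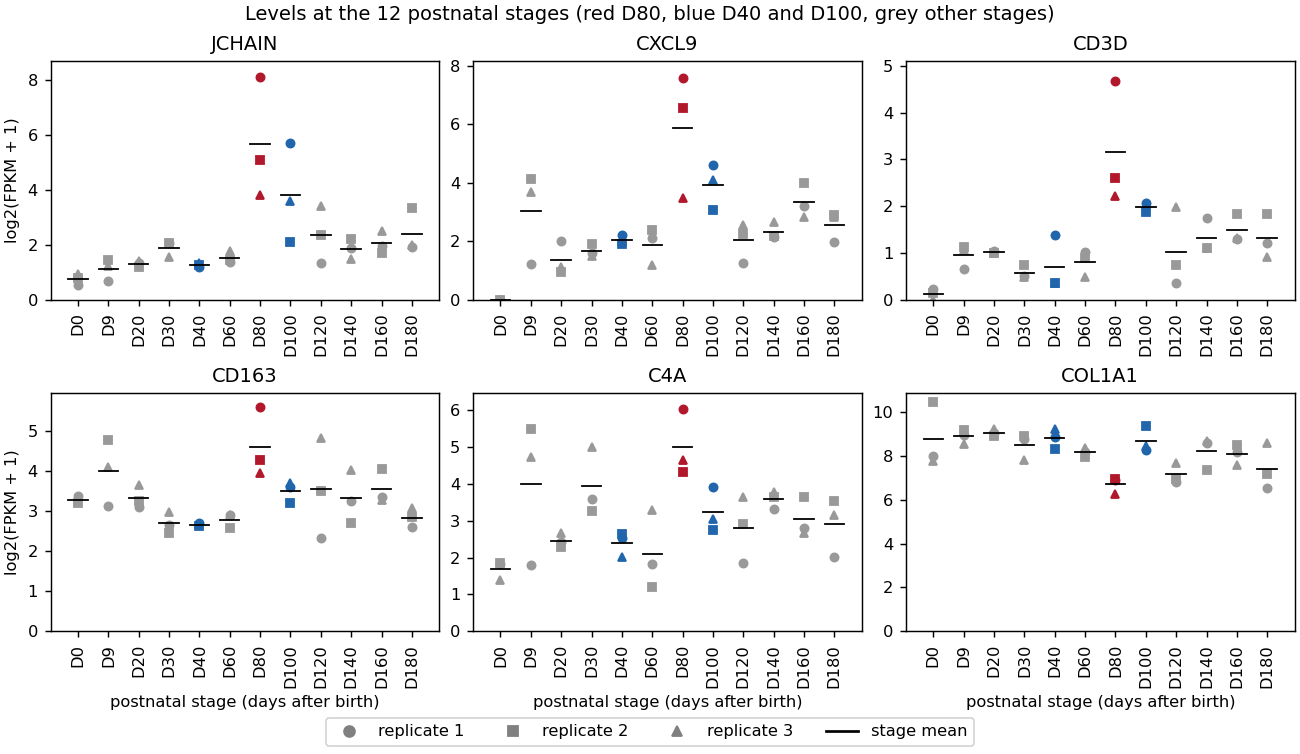
Level of 6 genes in log2(FPKM + 1) at the 12 postnatal stages in order of age; symbols are replicates, black lines stage means, red is D80, blue D40 and D100, grey the other stages. JCHAIN and CD3D are highest in D80 replicate 1 and CXCL9 in D80 replicates 1 and 2. All 3 D80 values of CD3D lie above those of every other stage. D80 replicate 3 of CXCL9 and D80 replicates 2 and 3 of JCHAIN lie below D100 replicate 1. Single libraries of other stages (C4A at D9, CD163 at D120) lie above the D80 mean and below D80 replicate 1. COL1A1 has its lowest mean at D80.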

How the data were processed

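Skeletal muscle RNA was sequenced from rRNA-depleted, strand-specific paired-end libraries, per the labels' protocols. The authors deposited 1 table of FPKM per gene and library, a unit normalised for transcript length and library size; per the submitters' processing notes the tools included Trimmomatic, HISAT2 2.0.4 and StringTie 1.3.1. For the genome build, the name is not given in the sources used here. FPKM are shares of a library, so a few abundant transcripts can lower all others. Read depth is unknown, and no counting intervals were computed.

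Of 28325 entries, 264 identical repeats of a gene ID were dropped, which left 28061 genes. Blank symbols (1522) were filled from RefSeq Sscrofa11.1, used for names only, and 25 symbols stored as dates were restored. Of 625 list entries in 34 lists 602 were found, 21 of them by product name.

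Values were analysed as log2(FPKM + 1), which understates fold changes of low genes, with limma 3.58.1 in R 4.3.3 and Python 3.11.15. The model held 27 stage means over 81 libraries (54 residual degrees of freedom), and its variances were moderated along the mean-variance trend. Tests were two-sided, with p-values adjusted by Benjamini and Hochberg over 14220 genes, those that reached 1 FPKM in 3 or more libraries. The contrast was the D80 mean minus the mean of the D40 and D100 means. Calls needed an adjusted p below 0.05 and a log2 fold change of 1 or more in size. The fit was tested on simulated data. Dates, batches and litters are not in the labels, so no within-batch value could be had.

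Genes, lists and tests were chosen with earlier results of these data known. Named genes were 28 anchors chosen by role, up to 4 called members of each list with the largest change, and the 12 higher and 10 lower called genes with a symbol that changed most. Of these 84 were tested, 71 were called and 3 were below the filter. Some of them are not reported here. A planned search for interferon motifs in promoters was not run. The alternatives tried are other pseudocounts, filters, scalings, reference stages, sets of libraries and variance settings.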

Additional observations from a re-analysis of the deposited data

How the results depend on the processing

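The counts over all genes, over the immune lists and of 7 of these lists were recomputed under each alternative, and 0 of the 71 called named genes changed sign under any of them. With each of the 9 libraries left out in turn, genes called higher ranged from 87 to 255 and genes called lower from 112 to 170. Immune list genes ranged from 23 to 100, interferon-gamma-induced genes from 7 to 12, type I genes from 0 to 4 and MHC class II genes from 0 to 8. T cell markers ranged from 2 to 8, cytotoxic markers from 3 to 13, plasma cell genes from 2 to 4 and macrophage markers from 1 to 15. The lowest immune counts came without D80 replicate 1 and the highest without D80 replicate 3; without D100 replicate 2 MHC class II had 0, with 9 at an unadjusted p below 0.05, and without D40 replicate 2 it had 1. With 9 libraries in the fit, 27 genes were called higher, 8 of the immune lists, 1 interferon-gamma gene, 1 macrophage marker and 0 MHC class II, T cell, cytotoxic or plasma cell genes, with 6, 9, 13 and 4 of these at an unadjusted p below 0.05; limma then rests on 6 residual degrees of freedom, and 3172 genes had an unadjusted p below 0.05. With D80 replicate 1 also left out of that fit, 24 were higher and 46 lower, with 3 of the immune lists, 1 interferon-gamma gene, 1 macrophage marker and 0 of the other 4 lists, with 1, 9, 12 and 4 at an unadjusted p below 0.05. Without D80 replicate 1 and D100 replicate 1 together, the counts were 25 immune list genes, 4 cytotoxic, 2 T cell, 2 plasma cell and 2 macrophage genes and 0 MHC class II genes, with 2 at an unadjusted p below 0.05. These last 2 settings were chosen after seeing the data. Against D100 alone, 87 were higher and 226 lower, with 33 immune list genes, 3 T cell markers, 1 macrophage marker and 0 MHC class II genes, also at an unadjusted p below 0.05. Against D40 alone, 275 were higher, with 89 immune list genes, 9 MHC class II genes and 15 macrophage markers. Against D40, D100, D120 and D140, 84 were lower, and 6 MHC class II and 8 type I genes were higher. With log2(FPKM + 0.1), 301 were higher and 413 lower, with 11 macrophage markers. With a mean of at least 1 FPKM required, 37 immune list genes were higher, with 1 T cell and 4 cytotoxic markers, since fewer low genes were tested. With no minimum fold change, 1188 were higher and 1615 lower, with 114 immune list, 8 MHC class II, 16 macrophage and 1 type I genes. With the 36 postnatal libraries in the fit, MHC class II had 0, with 8 at an unadjusted p below 0.05. Apart from the settings named for them, these counts stayed within 1.5 times of the main ones, also under median-ratio scaling, quantile normalisation, no filter, no trend and robust moderation. The smaller lists moved more. Over all alternatives, calls higher ranged from 0 to 13 for MHC class I, 0 to 10 for complement, 0 to 5 for chemokines, 0 to 7 for inflammatory cytokines, 0 to 2 for neutrophil markers, 0 to 4 for immediate early genes and 0 to 4 for glucocorticoid response genes (1 with 36 postnatal libraries). Calls lower ranged from 0 to 14 for matrix, 0 to 11 for slow-fibre (3 under median-ratio scaling), 0 to 4 for erythroid and 0 to 8 for endothelial genes, each 0 in the fit with the replicate block. The causes were not tested. A fit with the replicate number as a block called 0 genes in either direction in limma, with 0 in each list; the lowest adjusted p was 0.063 and 2986 genes had an unadjusted p below 0.05. Deviations of same-numbered libraries correlated at -0.19 to 0.16, and 2 of 9 libraries correlated best with their own number in both other stages. The labels do not say whether same-numbered libraries share a batch or litter, so these values cannot settle whether the numbers pair the samples.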
